A study of Mus musculus with 203 samples.

Results

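The genes of the TGF-beta and BMP signalling family were followed in lung RNA from mice exposed to allergen, cigarette smoke and a glucocorticoid. Members were chosen by symbol and not by their values: TGF-beta, BMP, GDF, activin and inhibin ligands, their receptors, the SMAD proteins, the latent TGF-beta binding proteins, the pseudoreceptor Bambi, and secreted BMP antagonists such as Grem1, Nog and Chrd. The rule matched 57 of the 43346 identifiers in the table. A low-count filter left 49 of them to be tested at 3 weeks and 50 at 11 weeks.

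The study modelled asthma, chronic obstructive pulmonary disease and their overlap in female Balb/C mice aged 18 to 20 weeks, and sequenced RNA of dissected airway and of lung parenchyma separately. At 3 weeks, mice had received house dust mite extract (HDM) by the nose 5 days per week for 3 weeks, or phosphate-buffered saline (PBS). In airway these were 10 HDM and 11 PBS libraries, and in parenchyma 10 HDM and 12 PBS libraries. At 11 weeks there were 16 groups of 10 libraries: HDM, given 3 times a week through weeks 4 to 11, or PBS, each combined with cigarette smoke (CS) on 5 days per week for 8 weeks or with normal air (AIR), each with or without dexamethasone (DEX) during week 11, in both tissues. All mice carried the same strain background and no engineered allele is named. The labels do not say which airway and parenchyma libraries came from 1 mouse. Neither do they say that each library of a group came from a separate mouse, and p-values measure the spread between these libraries.

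Total counts ran from 13003154 to 40240733 with a median of 28090684.0 over all libraries. No library pair within a group agreed within sampling noise. Libraries X32, X63, X70 and X126 were treated as standing apart from their groups. X32, of HDM-exposed, DEX-treated parenchyma, had the lowest total and 44.6% of its counts in 10 genes. The mean profile nearest to X70, labelled HDM.AIR parenchyma, was that of HDM.AIR airway, and the one nearest to X126, labelled PBS.AIR parenchyma, was that of HDM.CS parenchyma. The airway libraries X23, X103 and X183 of HDM mice at 3 weeks and X109 of HDM.AIR lay nearest to the parenchyma profile of their own treatment. Without these 4 airway libraries the count of members that passed moved by at most 1.5 times in each comparison, from 42 to 37 for HDM in airway at 3 weeks. Each time point was fitted apart, so these exclusions took only X63, or only X23, X103 and X183, from the 3-week fit. Further libraries, which were kept, also lay nearest to another group. In HDM.AIR.DEX airway X11 lay nearest to HDM.AIR airway, and X91, X131 and X151 to HDM.CS.DEX airway. Correlation with the own group was lower for X11 (0.868), X91 (0.858), X131 (0.877) and X21 of PBS airway at 3 weeks (0.855) than for X126 (0.881). The dissections held different cells: in PBS airway at 3 weeks, 5 of 5 cardiac muscle, 4 of 4 adipose, 5 of 5 smooth muscle, 5 of 5 ciliated and 4 of 4 club cell markers were higher than in PBS parenchyma, whereas 5 of 5 alveolar type I and 5 of 5 alveolar type II markers were lower. Airway libraries varied widely in such tissue, with summed cardiac markers between 252 and 4122 CPM, the library-scaled counts per 1e6, in PBS airway at 3 weeks.

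TGF-beta family ligands are secreted dimers that bind pairs of type I and type II receptors, which phosphorylate receptor-activated SMADs. TGF-beta and activin signal mainly through Smad2 and Smad3, and BMPs mainly through Smad1, Smad5 and Smad9, and both sets join Smad4 to enter the nucleus. The inhibitory Smad6 and Smad7 are induced by the pathway and damp it, secreted antagonists trap BMPs, and latent TGF-beta binding proteins hold TGF-beta in the matrix. In lung, TGF-beta and activin A are known for their part in airway remodelling and fibrosis, and BMP signalling through Bmpr2 and Acvrl1 for the upkeep of the vessel wall.

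Promoter sequence is shown for 4 members to which the results below return: the activin subunit Inhba, the BMP-induced inhibitor Smad6, the stress-responsive ligand Gdf15 and the BMP antagonist Grem1. Each is the 250 bases before the RefSeq start on GRCm38.p6, written 5′ to 3′ on the gene's strand, with capitals marking every match to any of 7 searched motifs. The windows lie at chr13:16011601-16011850 on the plus strand for Inhba, and on the minus strand at chr9:64022060-64022309 for Smad6, chr8:70632457-70632706 for Gdf15 and chr2:113758649-113758898 for Grem1. All 4 are upstream of the annotated gene.
Inhba: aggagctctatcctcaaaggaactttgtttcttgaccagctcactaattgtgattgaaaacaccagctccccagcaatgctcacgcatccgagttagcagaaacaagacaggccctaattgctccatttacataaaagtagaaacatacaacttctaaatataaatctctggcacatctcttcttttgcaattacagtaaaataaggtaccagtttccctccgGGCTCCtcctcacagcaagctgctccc
Smad6: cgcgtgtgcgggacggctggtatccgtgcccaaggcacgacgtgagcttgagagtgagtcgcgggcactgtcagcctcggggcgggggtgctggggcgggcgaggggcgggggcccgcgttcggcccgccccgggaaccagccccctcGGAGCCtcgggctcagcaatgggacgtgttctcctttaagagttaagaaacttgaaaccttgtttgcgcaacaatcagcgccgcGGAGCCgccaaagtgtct
Gdf15: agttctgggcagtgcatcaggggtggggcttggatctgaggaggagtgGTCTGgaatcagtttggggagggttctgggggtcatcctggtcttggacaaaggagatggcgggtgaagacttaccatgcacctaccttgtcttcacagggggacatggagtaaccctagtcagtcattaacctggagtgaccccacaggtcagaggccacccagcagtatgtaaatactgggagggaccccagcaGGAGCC
Grem1: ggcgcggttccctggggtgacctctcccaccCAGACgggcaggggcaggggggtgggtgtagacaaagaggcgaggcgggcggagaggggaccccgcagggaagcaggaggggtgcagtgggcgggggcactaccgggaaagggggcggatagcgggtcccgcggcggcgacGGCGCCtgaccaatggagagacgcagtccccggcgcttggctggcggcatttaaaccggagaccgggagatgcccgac

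The motifs were searched on both strands in the 250 bases before 1 RefSeq start per gene, and 26 of the 40 member windows lie outside the annotated gene. For members the start nearest to the annotated gene start was taken, and for other genes the most upstream start. The shares of members and of all promoters therefore rest on windows chosen differently. CAGAC, the short SMAD-binding sequence, was in 42.2% of 27025 promoters and in 18 of the 40 members with a window (45%), among them Gdf15 and Grem1. The BMP-SMAD element GGCGCC was in 9.57% of promoters and 15% of members, and its variant GGAGCC in 25.6% and 45%. Smad6 carried 2 matches to GGAGCC, Inhba and Gdf15 carried 1 each, and Grem1 carried 1 match to GGCGCC. No member window held the SMAD box GTCTAGAC (0.174% of promoters), the glucocorticoid response element (0.0037%), the NF-kappaB site (0.133%) or the AP-1 site TGACTCA (4.43%). CAGAC can lie partly in the unspecified bases of the glucocorticoid element, and no other motif lies inside another. A match says only that these letters occur in the window.

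In control lung Acvrl1, an endothelial type I receptor, had the highest mean level of the members per kilobase of exon. It led on that scale in each of the 4 control groups, with a mean ± SD of 49.6 ± 13.0 CPM per kilobase in PBS airway and 83.5 ± 9.85 in PBS parenchyma at 3 weeks. At 11 weeks its level per kilobase was 72.3 ± 27.9 CPM in PBS.AIR airway and 151.4 ± 11.9 CPM in PBS.AIR parenchyma. Bmpr2, the BMP type II receptor, came next in parenchyma, at 56.4 ± 9.26 and 66.5 ± 10.4 CPM per kilobase at the 2 times. Without scaling to exon length Bmpr2 stood above Acvrl1 at 3 weeks, at a mean of 588 against 211 CPM in PBS airway and 1014 against 356 CPM in PBS parenchyma. In the parenchyma at 11 weeks the lowest Acvrl1 library, at 135.4 CPM per kilobase, lay above the highest Bmpr2 library, at 86.1, whereas at 3 weeks the lowest Acvrl1 library, at 70.8, lay below the highest Bmpr2 library, at 78.8. In PBS airway at 3 weeks the libraries of Acvrl1 spanned 27.4 to 64.8 CPM per kilobase and overlapped those of the next genes, Bmp4 (33.8 ± 5.96) and Bmpr2 (32.7 ± 11.0). The ranges thus did not separate this order, and the order within single libraries was not compared. In PBS.AIR airway at 11 weeks the next gene was Ltbp4, a latent TGF-beta binding protein, at 40.04 ± 10.5 CPM per kilobase, ahead of Bmpr2 at 32.3 ± 11.1, and Acvrl1 libraries down to 29.6 overlapped Ltbp4 libraries up to 58.04.

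After HDM for 3 weeks the order per kilobase had changed. Tgfbr1, the type I receptor for TGF-beta, then had the highest mean of all members, at 29.9 ± 7.94 CPM per kilobase in airway and 41.7 ± 3.81 in parenchyma. The next gene in airway was Tgfbr2, the TGF-beta type II receptor, at 27.3 ± 3.07 CPM per kilobase, followed by Acvrl1 at 24.9 ± 7.51, and in parenchyma the next was Acvrl1 at 39.1 ± 3.80. In each tissue the libraries of Tgfbr1 overlapped those of the next gene, so the ranges did not separate the order, which was not compared within single libraries.

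Control airway and parenchyma differed in a set of members. Among PBS libraries at 3 weeks, 12 members were higher and 18 lower in airway (limma-voom with Benjamini-Hochberg adjustment, adjusted p under 0.05), where 56.1% of all genes tested differed (24.3% higher, 31.7% lower). Acvr1c, a type I receptor for Nodal and activin B, was higher in airway by 4.73 ± 0.59 on the log2 scale (adjusted p = 1.8e-08), with every airway library above every parenchyma library. Grem1, the secreted antagonist of BMP2 and BMP4, was higher by 3.55 ± 0.73 (adjusted p = 7.6e-05). PBS parenchyma libraries held only 0 to 5 counts of Acvr1c and 2 to 20 of Grem1, which makes the size of both differences less certain. Gdf10 was higher in airway by 2.02 ± 0.25 (adjusted p = 1.9e-08) and Tgfb3 by 1.37 ± 0.17 (adjusted p = 1.3e-08). These airway-high members were higher in the same tissue as the cardiac, adipose and smooth muscle markers given above, whose part in the difference was not tested.

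The receptors Acvrl1 and Bmpr2 and the SMADs Smad6 and Smad9 were lower in airway than in parenchyma. At 3 weeks the log2 difference was -0.78 ± 0.14 for Acvrl1 (adjusted p = 7.3e-06), -0.83 ± 0.14 for Bmpr2 (adjusted p = 5.3e-06), -0.86 ± 0.15 for Smad6 (adjusted p = 4.7e-06) and -0.99 ± 0.14 for Smad9 (adjusted p = 3.0e-07). Endothelial markers were lower in airway for 3 of 5 genes and higher for 1, with a median log2 difference of -0.38, and their part was not tested. Among PBS.AIR libraries at 11 weeks, 11 members were higher and 24 lower in airway, against 56.4% of all genes differing (26.3% higher, 30.1% lower). Acvr1c (4.70 ± 0.98, adjusted p = 1.4e-05) and Grem1 (3.88 ± 0.70, adjusted p = 5.8e-07) were again the furthest above parenchyma on the log2 scale.

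HDM raised the activin subunit Inhba, the ligands Gdf3 and Gdf11 and the receptor Tgfbr1 in both tissues at both times, and lowered Bmp4, Bmp6, Bmpr2, Acvrl1 and Smad6. At 3 weeks 11 members were higher and 31 lower in HDM than in PBS airway, and 11 were higher and 33 lower in parenchyma (limma-voom with Benjamini-Hochberg adjustment). Of all genes tested, 74.6% passed in airway (34.1% higher, 40.5% lower) and 77.7% in parenchyma (33.4% higher, 44.3% lower). The median log2 fold change of the tested members was -0.63 in airway and -0.78 in parenchyma, beside -0.07 and -0.13 over all genes. At 11 weeks, HDM.AIR against PBS.AIR gave 15 members higher and 27 lower in airway and 14 higher and 26 lower in parenchyma, where 61.1% (31.3% higher, 29.8% lower) and 59.5% (32.6% higher, 26.9% lower) of all genes passed. The median of the members was then -0.28 and -0.36, beside 0.00 and 0.05 over all genes.

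**Figure D1:**
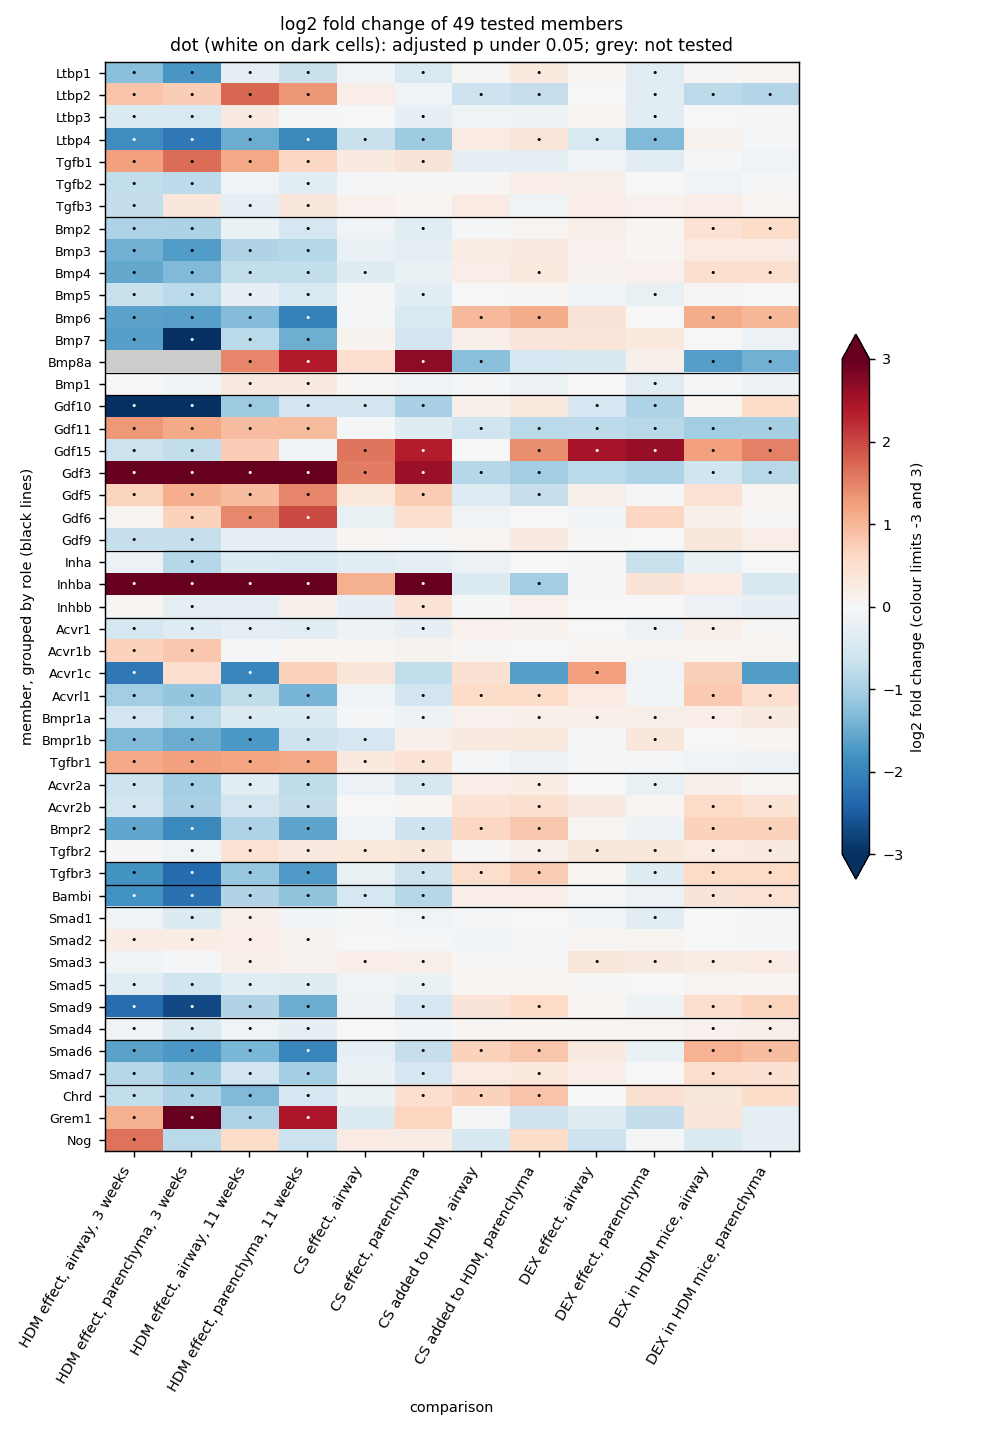
Log2 fold change (colour, limited to -3 and 3) of 49 of the 50 tested members (lines) in 12 comparisons (columns), with a dot where the adjusted p was under 0.05 and grey where a gene was not tested. The 4 HDM columns are mostly blue, with Inhba and Gdf3 among the red lines, and the CS and DEX columns hold fewer dots.

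Cell type markers also differed in these comparisons. In all 4 HDM comparisons 5 of 5 endothelial markers were lower, with a median log2 fold change of -1.02 in airway and -1.13 in parenchyma at 3 weeks, and of -0.63 and -1.20 at 11 weeks. The summed endothelial markers lay between 1075 and 1570.2 CPM in PBS parenchyma and between 541 and 801 CPM in HDM parenchyma at 3 weeks. Alveolar type I markers were lower for 4 of 5 genes in both tissues at 3 weeks, and in airway HDM also lowered 5 of 5 cardiac and 4 of 4 adipose markers. Neutrophil markers rose for 4 of 4 genes and macrophage markers for 4 of 5 in both tissues at 3 weeks, with 1 macrophage marker lower in airway, and the summed macrophage markers went from 163.8 to 308 CPM in PBS parenchyma to 578 to 796 CPM in HDM parenchyma. In every group each endothelial, macrophage and neutrophil marker exceeded 3 counts in at least 1 library. In bulk tissue, fewer cells of a type and less RNA per cell cannot be told apart, and the part of these cells in the members' changes was not tested.

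Inhba, which encodes the beta A subunit of activin A (ENSMUSG00000041324.9, chr13:16011851-16031621, plus strand), had the largest log2 rise of the members in 3 of the 4 HDM comparisons, Gdf3 exceeding it in airway at 11 weeks. In airway at 3 weeks the PBS libraries ran from 0.396 to 2.69 CPM with a median of 0.778, and the HDM libraries from 6.73 to 74.6 CPM with a median of 37.9. In parenchyma the PBS libraries ran from 0.109 to 0.693 CPM (median 0.281) and the HDM libraries from 33.01 to 73.9 CPM (median 57.2). Every HDM library lay above every PBS library in both tissues. The log2 fold change was 4.98 ± 0.56 in airway (31.5-fold, adjusted p = 1.5e-10) and 7.50 ± 0.83 in parenchyma (181.3-fold, adjusted p = 7.4e-11). The PBS parenchyma libraries held only 2 to 12 counts each, which makes the larger fold less certain than its order. At 11 weeks the PBS.AIR libraries ran from 1.06 to 3.22 CPM (median 1.62) in airway and 0.221 to 1.58 CPM (median 0.409) in parenchyma, X126 holding the highest value. The HDM.AIR libraries then ran from 7.46 to 52.6 CPM (median 26.2) and from 13.3 to 66.7 CPM (median 41.6), again without overlap. The log2 fold change at 11 weeks was 3.70 ± 0.41 in airway (13.0-fold, adjusted p = 1.3e-14) and 6.23 ± 0.62 in parenchyma (74.9-fold, adjusted p = 3.2e-17).

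Gdf3, a GDF ligand known from early development and adipose macrophages (ENSMUSG00000030117.4, chr6:122605403-122610087, minus strand), followed the same pattern at lower levels. At 3 weeks its PBS libraries lay between 0.180 and 1.48 CPM (median 0.468) in airway and between 0.0455 and 0.438 CPM (median 0.201) in parenchyma. The HDM libraries lay between 4.00 and 14.2 CPM (median 8.62) and between 4.54 and 17.7 CPM (median 9.41), with no overlap in either tissue. The log2 fold change was 3.90 ± 0.36 in airway (14.9-fold, adjusted p = 8.5e-13) and 5.37 ± 0.47 in parenchyma (41.3-fold, adjusted p = 1.2e-13). At 11 weeks the values were 4.38 ± 0.41 (20.9-fold, adjusted p = 1.3e-18) and 4.94 ± 0.45 (30.7-fold, adjusted p = 3.3e-19). The HDM.AIR libraries, at 3.57 to 10.5 CPM (median 5.49) in airway and 2.21 to 12.2 CPM (median 6.59) in parenchyma, again lay above all PBS.AIR libraries, which reached 0.660 and 0.539 CPM.

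**Figure D2:**
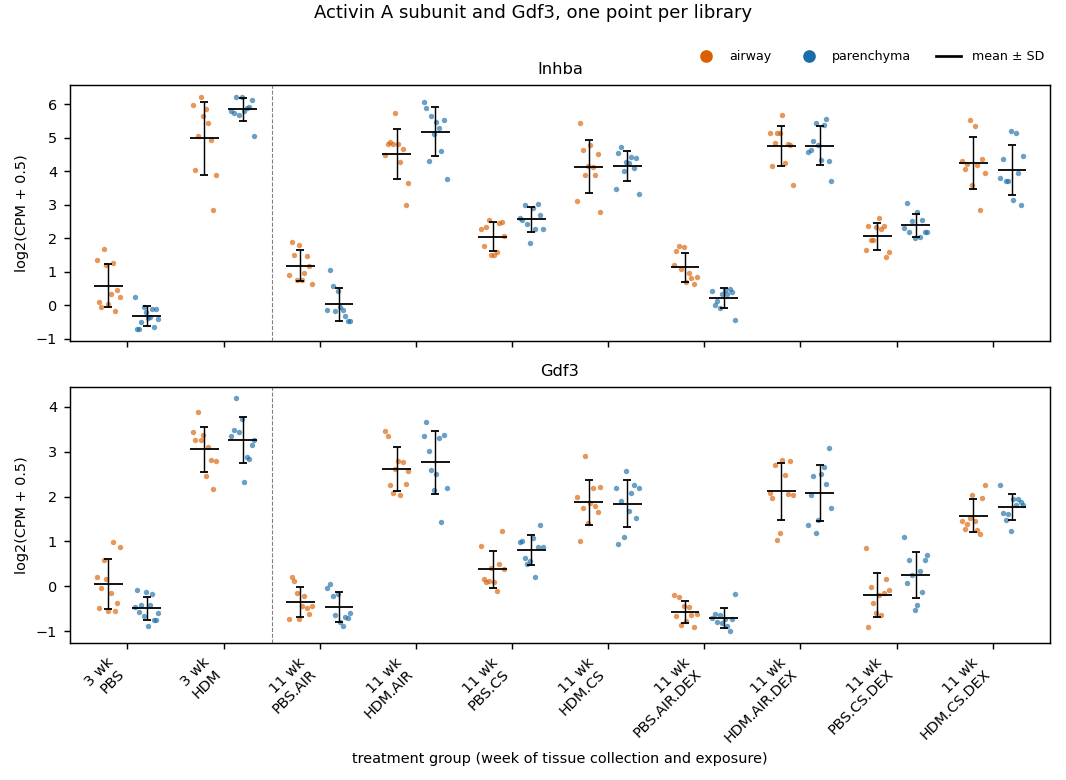
Levels of Inhba and Gdf3 as log2(CPM + 0.5) for every library in the 20 groups, with airway in orange, parenchyma in blue and bars for the group mean ± SD. HDM groups stand above their PBS groups for both genes, and PBS.CS parenchyma, with Inhba between 3.16 and 7.66 CPM, stands above PBS.AIR parenchyma.

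The TGF-beta ligands moved in different directions. Tgfb1, the main TGF-beta of inflamed tissue, ran from 18.3 to 34.3 CPM (median 24.8) in PBS airway and from 28.8 to 97.8 CPM (median 63.6) in HDM airway at 3 weeks, with 9 of 10 HDM libraries above all PBS libraries. In parenchyma it ran from 20.1 to 39.1 CPM (median 25.8) in PBS and from 67.9 to 104.9 CPM (median 93.7) in HDM, without overlap. Its log2 fold change was 1.23 ± 0.14 in airway (adjusted p = 5.6e-10) and 1.68 ± 0.15 in parenchyma (adjusted p = 1.0e-13) at 3 weeks, and 1.17 ± 0.15 (adjusted p = 3.3e-12) and 0.63 ± 0.14 (adjusted p = 6.1e-05) at 11 weeks. Tgfb2, an epithelial and smooth muscle isoform, fell at 3 weeks by 0.73 ± 0.13 on the log2 scale in airway (adjusted p = 2.7e-06) and by 0.78 ± 0.12 in parenchyma (adjusted p = 2.4e-07). At 11 weeks its log2 fold change was -0.13 ± 0.13 in airway (adjusted p = 0.41) and -0.35 ± 0.12 in parenchyma (adjusted p = 0.0089). Tgfb3, a mesenchymal isoform, fell in airway by 0.71 ± 0.16 at 3 weeks (adjusted p = 9.3e-05) and 0.30 ± 0.12 at 11 weeks (adjusted p = 0.027). In parenchyma its log2 fold change was 0.33 ± 0.18 at 3 weeks (adjusted p = 0.099) and 0.33 ± 0.13 at 11 weeks (adjusted p = 0.021).

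Of the latency proteins, Ltbp2 rose while Ltbp1 and Ltbp4 fell. Ltbp2, which binds elastic fibres and not TGF-beta itself, ran from 25.5 to 41.8 CPM (median 35.6) in PBS.AIR airway and from 93.2 to 167.6 CPM (median 108.4) in HDM.AIR airway at 11 weeks. The groups did not overlap, nor did they in parenchyma, where PBS.AIR spanned 39.2 to 59.1 CPM (median 51.8) and HDM.AIR 86.02 to 157.2 CPM (median 113.8). Its log2 fold change at 11 weeks was 1.72 ± 0.11 in airway (adjusted p = 2.8e-31) and 1.33 ± 0.11 in parenchyma (adjusted p = 8.2e-23), and at 3 weeks 0.86 ± 0.14 (adjusted p = 5.0e-07) and 0.74 ± 0.14 (adjusted p = 6.1e-06). Ltbp4, which supports elastic fibre assembly and holds latent TGF-beta 1, ran from 94.98 to 173.9 CPM (median 124.2) in PBS parenchyma and from 23.5 to 38.9 CPM (median 27.8) in HDM parenchyma at 3 weeks. It fell without overlap in all 4 HDM comparisons, by 1.87 ± 0.17 and 2.14 ± 0.16 on the log2 scale at 3 weeks (airway and parenchyma, adjusted p = 2.8e-13 and 2.5e-15) and by 1.50 ± 0.13 and 1.93 ± 0.13 at 11 weeks (adjusted p = 8.3e-20 and 4.7e-28). Ltbp1, which anchors latent TGF-beta in matrix, fell by 1.26 ± 0.12 and 1.75 ± 0.12 at 3 weeks (adjusted p = 9.5e-13 and 1.0e-16) and by 0.27 ± 0.10 and 0.66 ± 0.10 at 11 weeks (adjusted p = 0.014 and 2.8e-09).

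The BMP ligands fell. All 6 tested at 3 weeks were lower with HDM in both tissues, and at 11 weeks 5 of 7 were lower in airway and 6 of 7 in parenchyma. Of all genes tested, 40.5% and 44.3% were lower at 3 weeks and 29.8% and 26.9% at 11 weeks. Bmp6, made by endothelial and other cells and a regulator of iron balance, ran from 27.5 to 63.8 CPM (median 34.2) in PBS parenchyma and from 6.27 to 19.1 CPM (median 12.1) in HDM parenchyma at 3 weeks. In airway its PBS libraries ran from 13.0 to 45.9 CPM (median 22.9) and its HDM libraries from 4.51 to 12.2 CPM (median 7.37). Neither tissue showed overlap, and Bmp6 fell by 1.61 ± 0.22 in airway (adjusted p = 1.8e-08) and 1.64 ± 0.19 in parenchyma (adjusted p = 5.0e-10) on the log2 scale. At 11 weeks it fell by 1.30 ± 0.24 (adjusted p = 6.0e-07) and 2.02 ± 0.22 (adjusted p = 4.5e-15). Bmp4, a morphogen of distal lung, fell from a median of 79.8 CPM (54.01 to 94.8) to 26.6 CPM (20.8 to 33.1) in airway at 3 weeks, without overlap. Its log2 fold change was -1.54 ± 0.09 in airway (adjusted p = 3.6e-18) and -1.33 ± 0.09 in parenchyma (adjusted p = 2.6e-17) at 3 weeks, and -0.74 ± 0.11 in both tissues at 11 weeks (adjusted p = 1.9e-09 and 1.7e-09). Bmp7, often described as opposing TGF-beta, fell furthest in parenchyma at 3 weeks, where PBS ran from 0.824 to 2.74 CPM (median 1.96) and HDM from 0.0703 to 0.390 CPM (median 0.183). Its log2 fold change was -1.65 ± 0.29 in airway (adjusted p = 2.5e-06) and -3.17 ± 0.49 in parenchyma (adjusted p = 1.9e-07) at 3 weeks and -0.82 ± 0.21 and -1.46 ± 0.27 at 11 weeks (adjusted p = 3.6e-04 and 1.2e-06). Bmp3, an atypical BMP that antagonises others, fell by 1.44 ± 0.13 and 1.68 ± 0.14 at 3 weeks (adjusted p = 3.1e-13 and 5.9e-14) and by 0.91 ± 0.13 and 0.86 ± 0.13 at 11 weeks (adjusted p = 2.3e-10 and 4.3e-09).

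Bmp8a was the exception among BMP ligands at 11 weeks, at very low levels. It ran from 0.0295 to 0.345 CPM (median 0.184) in PBS.AIR airway and from 0.249 to 0.749 CPM (median 0.472) in HDM.AIR airway, with 7 of 10 HDM libraries above all PBS libraries. The log2 fold change was 1.47 ± 0.34 in airway (adjusted p = 9.6e-05) and 2.39 ± 0.46 in parenchyma (adjusted p = 2.9e-06). Reads of Bmp8a and its near copy Bmp8b may have been split by the counting. Bmp8a also overlaps the span of Oxct2a on its own strand, and whether exons are shared was not examined. PBS.AIR parenchyma held at most 4 counts of Bmp8a per library. The values of Bmp8a are therefore uncertain.

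Most GDF ligands other than Gdf3 moved less. Gdf11, a relative of myostatin, ran from 2.14 to 4.66 CPM (median 3.09) in PBS parenchyma and from 4.73 to 9.49 CPM (median 6.60) in HDM parenchyma at 3 weeks, without overlap. It rose by a log2 fold change of 1.29 ± 0.15 in airway (adjusted p = 2.1e-10) and 1.14 ± 0.16 in parenchyma (adjusted p = 2.9e-08) at 3 weeks, and by 0.93 ± 0.16 (adjusted p = 2.5e-07) and 0.94 ± 0.17 (adjusted p = 1.3e-06) at 11 weeks. Gdf5, a joint and cartilage morphogen, rose by 0.67 ± 0.23 and 1.10 ± 0.23 at 3 weeks (adjusted p = 0.0075 and 5.4e-05) and by 0.92 ± 0.21 and 1.47 ± 0.22 at 11 weeks (adjusted p = 5.8e-05 and 2.6e-09). The airway call of Gdf5 at 3 weeks was lost without the 3-week airway libraries nearest to parenchyma (adjusted p = 0.056). Gdf6, its close relative, was under 1.6 CPM in each HDM.AIR library and rose at 11 weeks by 1.43 ± 0.36 in airway (adjusted p = 2.8e-04) and 1.97 ± 0.36 in parenchyma (adjusted p = 9.5e-07). At 3 weeks its log2 fold change was 0.09 ± 0.32 in airway (adjusted p = 0.8) and 0.69 ± 0.31 in parenchyma (adjusted p = 0.041, and 0.056 by the edgeR quasi-likelihood test). Gdf10, a BMP3-like ligand, fell from a median of 29.8 CPM (19.4 to 74.8) to 4.48 CPM (1.24 to 12.1) in airway and from 8.14 CPM (5.36 to 10.1) to 1.09 CPM (0.415 to 1.60) in parenchyma at 3 weeks. Those groups did not overlap, and its log2 fold change was -3.01 ± 0.30 and -3.10 ± 0.52 (adjusted p = 1.1e-11 and 9.9e-07). At 11 weeks it was -1.08 ± 0.18 in airway (adjusted p = 8.0e-08) and -0.57 ± 0.24 in parenchyma (adjusted p = 0.035). Gdf15, a stress-induced ligand, had a log2 fold change of -0.64 ± 0.28 in airway (adjusted p = 0.034) and -0.73 ± 0.24 in parenchyma (adjusted p = 0.0051) at 3 weeks. Its calls were lost in 1 fit of all libraries, with adjusted p of 0.25 and 0.14. The airway call was also lost without X63 (adjusted p = 0.063), the only 3-week library treated as standing apart. It was lost as well without the 3-week airway libraries nearest to parenchyma (adjusted p = 0.079). At 11 weeks Gdf15 did not pass, at 0.74 ± 0.52 in airway (adjusted p = 0.21) and -0.09 ± 0.46 in parenchyma (adjusted p = 0.88).

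Among the receptors, Tgfbr1 rose and most BMP receptors fell. Tgfbr1 ran from 68.6 to 105.2 CPM (median 84.9) in PBS airway and from 112.6 to 291 CPM (median 195.3) in HDM airway, and from 93.6 to 144.4 CPM (median 110.8) in PBS parenchyma and 234 to 321 CPM (median 272) in HDM parenchyma at 3 weeks. No HDM library reached down to a PBS library in any of the 4 comparisons, and the log2 fold change was close to 1 in each, at 1.13 ± 0.10 and 1.22 ± 0.10 at 3 weeks (adjusted p = 9.0e-14 and 4.0e-15) and 1.18 ± 0.07 and 1.15 ± 0.08 at 11 weeks (adjusted p = 1.7e-31 and 4.1e-30). Its partner Tgfbr2 had a log2 fold change of -0.05 ± 0.05 in airway (adjusted p = 0.42) and -0.14 ± 0.05 in parenchyma (adjusted p = 0.011) at 3 weeks. The parenchyma call was lost with DESeq2 (adjusted p = 0.34). It was also lost without X63 (adjusted p = 0.28), and without X23, X103 and X183 (adjusted p = 0.35). These are all HDM airway libraries, so no parenchyma library left the comparison in either fit. At 11 weeks Tgfbr2 rose by 0.44 ± 0.05 and 0.27 ± 0.05 (adjusted p = 4.6e-15 and 3.1e-07).

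Bmpr2, mutated in heritable pulmonary hypertension, ran from 824 to 1416 CPM (median 997) in PBS parenchyma and from 224 to 374 CPM (median 256) in HDM parenchyma at 3 weeks. In airway it ran from 299.6 to 860.4 CPM (median 563) in PBS and from 144.2 to 293 CPM (median 201.5) in HDM, and the groups overlapped in neither tissue. Bmpr2 fell by 1.55 ± 0.14 and 1.94 ± 0.14 on the log2 scale at 3 weeks (adjusted p = 4.4e-13 and 3.3e-16) and by 0.93 ± 0.16 and 1.58 ± 0.17 at 11 weeks (adjusted p = 3.7e-07 and 8.0e-15). Acvrl1, its endothelial type I partner, fell by 1.04 ± 0.14 and 1.16 ± 0.14 at 3 weeks (adjusted p = 8.0e-09 and 5.8e-10) and by 0.77 ± 0.16 and 1.39 ± 0.17 at 11 weeks (adjusted p = 1.2e-05 and 9.8e-13). Bmpr1b, a BMP type I receptor, fell by 1.32 ± 0.13 and 1.49 ± 0.17 at 3 weeks (adjusted p = 6.2e-12 and 3.5e-10) and by 1.73 ± 0.12 and 0.65 ± 0.15 at 11 weeks (adjusted p = 4.1e-27 and 9.5e-05). In airway at 11 weeks its PBS.AIR libraries ran from 14.2 to 22.1 CPM (median 17.3) and its HDM.AIR libraries from 2.66 to 7.29 CPM (median 5.59), without overlap. Acvr2a, an activin type II receptor, fell by 0.63 ± 0.07 and 1.01 ± 0.07 at 3 weeks (adjusted p = 5.5e-10 and 3.4e-16) and by 0.35 ± 0.08 and 0.77 ± 0.08 at 11 weeks (adjusted p = 1.1e-04 and 1.5e-15).

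Acvr1c fell in airway from a median of 2.03 CPM (0.880 to 4.45) to 0.262 CPM (0.135 to 2.73) at 3 weeks, with 7 of 10 HDM libraries below all PBS libraries. The log2 fold change was -2.14 ± 0.40 at 3 weeks (adjusted p = 6.9e-06) and -1.95 ± 0.62 at 11 weeks (adjusted p = 0.0042), and the adipose markers fell beside it in airway. In parenchyma, where PBS libraries at 3 weeks held at most 5 counts, its log2 fold change was 0.51 ± 0.78 (adjusted p = 0.56). The co-receptor Tgfbr3, betaglycan, fell from a median of 86.6 CPM (67.3 to 123.7) to 17.8 CPM (15.6 to 22.5) in parenchyma at 3 weeks, without overlap. Its log2 fold change was -1.79 ± 0.12 and -2.32 ± 0.13 at 3 weeks (adjusted p = 1.3e-16 and 7.6e-20) and -1.13 ± 0.11 and -1.70 ± 0.11 at 11 weeks (adjusted p = 1.6e-18 and 2.6e-31). Bambi, a receptor decoy without a kinase domain, fell from a median of 37.7 CPM (33.2 to 51.4) to 8.92 CPM (6.63 to 10.8) in parenchyma at 3 weeks. Bambi fell without overlap in all 4 comparisons, by 1.82 ± 0.11 and 2.24 ± 0.12 at 3 weeks (adjusted p = 8.8e-18 and 1.2e-20) and by 0.91 ± 0.10 and 1.20 ± 0.10 at 11 weeks (adjusted p = 1.4e-14 and 1.0e-21).

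**Figure D3:**
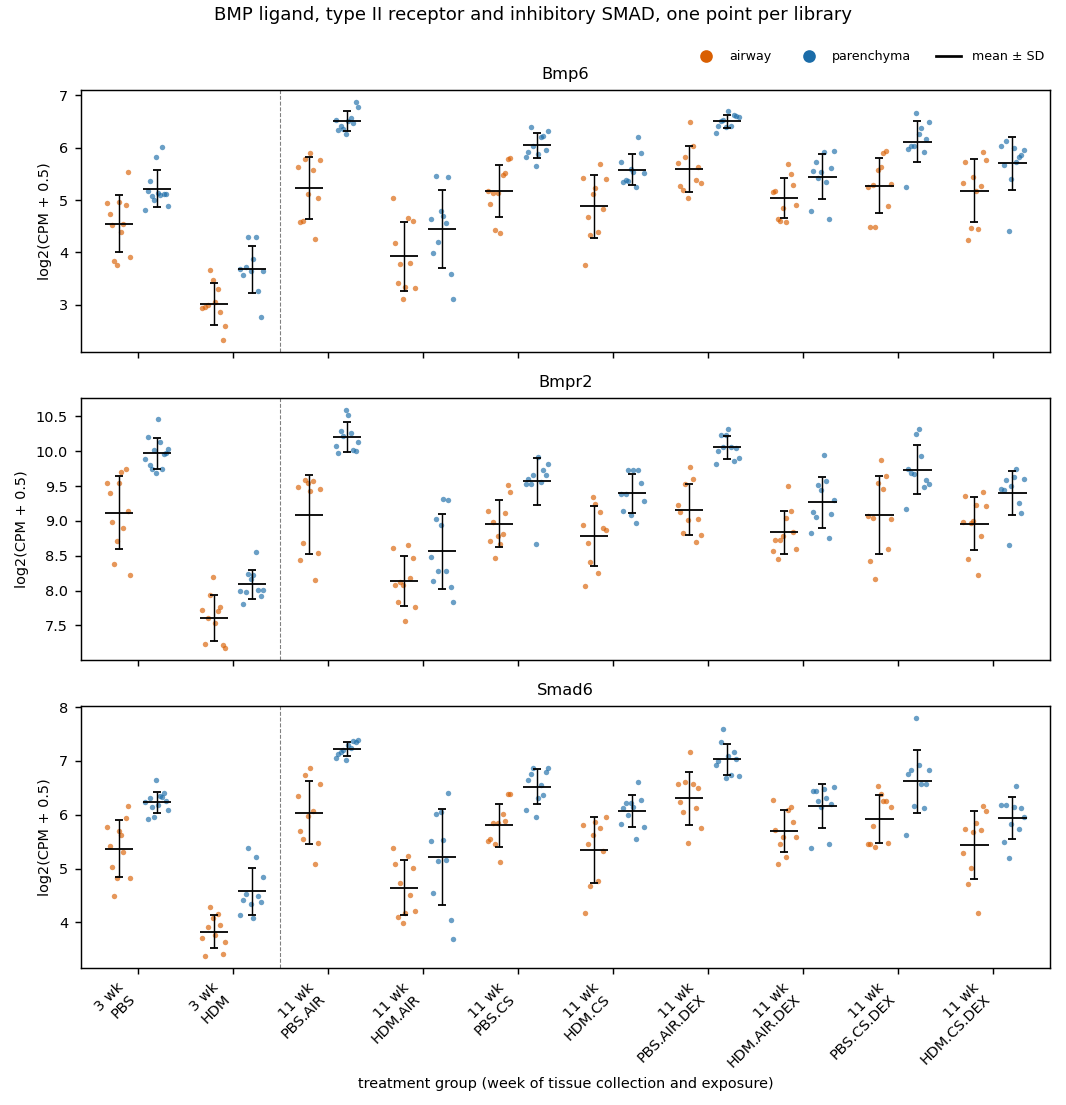
Levels of Bmp6, Bmpr2 and Smad6 as log2(CPM + 0.5) for every library in the 20 groups, with airway in orange, parenchyma in blue and bars for the group mean ± SD. Each gene is lower in HDM than in PBS groups, and HDM.CS and HDM.AIR.DEX groups lie between HDM.AIR and PBS.AIR in mean.

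The inhibitory SMADs fell with the BMP receptors. Smad6, whose promoter is shown above, ran from 59.9 to 99.3 CPM (median 75.04) in PBS parenchyma and from 16.4 to 41.02 CPM (median 21.4) in HDM parenchyma at 3 weeks. In airway it ran from 21.8 to 71.6 CPM (median 42.4) in PBS and from 9.88 to 19.0 CPM (median 13.8) in HDM, again without overlap. It fell by 1.60 ± 0.18 and 1.73 ± 0.16 on the log2 scale at 3 weeks (adjusted p = 1.5e-10 and 6.6e-13) and by 1.38 ± 0.23 and 1.96 ± 0.22 at 11 weeks (adjusted p = 5.8e-08 and 5.6e-14). Smad7, which also blocks TGF-beta receptors, fell by 0.85 ± 0.10 and 1.16 ± 0.10 at 3 weeks (adjusted p = 9.2e-10 and 3.3e-14) and by 0.57 ± 0.12 and 1.02 ± 0.12 at 11 weeks (adjusted p = 2.0e-05 and 1.3e-13). Smad9, a BMP-activated SMAD, fell from a median of 14.9 CPM (12.3 to 18.3) to 2.24 CPM (1.37 to 4.16) in parenchyma at 3 weeks, without overlap. Smad9 had a log2 fold change of -2.29 ± 0.24 and -2.71 ± 0.21 at 3 weeks (adjusted p = 2.3e-11 and 2.5e-15) and -0.90 ± 0.20 and -1.50 ± 0.19 at 11 weeks (adjusted p = 5.3e-05 and 1.5e-12). Smad3, which carries the TGF-beta signal, had a log2 fold change between -0.11 and 0.16 in the 4 comparisons and passed only in airway at 11 weeks (0.16 ± 0.07, adjusted p = 0.039).

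The secreted BMP antagonists divided. Grem1 in parenchyma ran from 0.0909 to 0.916 CPM (median 0.281) in PBS and from 2.37 to 5.76 CPM (median 3.24) in HDM at 3 weeks, without overlap. It rose there by a log2 fold change of 3.52 ± 0.74 at 3 weeks (adjusted p = 4.4e-05) and 2.43 ± 0.75 at 11 weeks (adjusted p = 0.0031). In airway, where PBS libraries already ran from 0.828 to 17.3 CPM (median 2.88) and HDM libraries from 3.47 to 14.1 CPM (median 6.79), the groups overlapped and the log2 fold change was 1.07 ± 0.36 at 3 weeks (adjusted p = 0.0081). That call was lost with DESeq2 and the edgeR quasi-likelihood test (adjusted p = 0.34 in both), and with runs of 20 library codes as a block (adjusted p = 0.14). At 11 weeks the airway value was -0.92 ± 0.41 (adjusted p = 0.043), which 6 of 10 alternatives lost with adjusted p from 0.056 to 0.15. Chrd, chordin, fell most in airway at 11 weeks, from a median of 2.72 CPM (1.78 to 5.07) to 1.06 CPM (0.782 to 1.71), by 1.33 ± 0.18 on the log2 scale (adjusted p = 1.5e-10). Nog, noggin, rose in airway at 3 weeks by 1.62 ± 0.38 (adjusted p = 2.0e-04), with PBS at 0.166 to 0.641 CPM (median 0.246) and HDM at 0.169 to 3.83 CPM (median 0.967). In the other 3 HDM comparisons Nog did not pass, at -0.82 ± 0.49 in parenchyma at 3 weeks (adjusted p = 0.12), 0.54 ± 0.30 in airway at 11 weeks (adjusted p = 0.11) and -0.65 ± 0.34 in parenchyma at 11 weeks (adjusted p = 0.085).

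The other tested members moved within narrower bounds. Of the 15 not described singly, 11 passed in airway and 14 in parenchyma at 3 weeks, with log2 fold changes from -0.92 (Bmp2) to 0.69 (Acvr1b, an activin type I receptor) in airway and from -0.97 (Acvr2b) to 0.82 (Acvr1b) in parenchyma. At 11 weeks 10 passed in airway and 9 in parenchyma, from -0.54 (Acvr2b) to 0.27 (Bmp1 and Ltbp3) and from -0.71 (Acvr2b) to 0.28 (Bmp1). Of all genes tested, 74.6% passed in airway and 77.7% in parenchyma at 3 weeks, and 61.1% and 59.5% at 11 weeks.

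Other genes of the pathway were counted from a list of 42 regulators and targets, of which 41 were tested. With HDM, 12 were higher and 22 lower in airway and 15 higher and 22 lower in parenchyma at 3 weeks, where 74.6% and 77.7% of all genes passed. At 11 weeks 13 were higher and 18 lower in airway and 16 higher and 20 lower in parenchyma, where 61.1% and 59.5% of all genes passed. The 6 targets of BMP signalling gave 1 higher and 5 lower in each of the 4 comparisons, with a median log2 fold change of -1.38 and -1.42 at 3 weeks and -0.70 and -1.08 at 11 weeks. Id4, an inhibitor of helix-loop-helix factors, fell by 1.86 ± 0.15 in airway at 3 weeks (adjusted p = 1.6e-14), and Hey1, a Notch and BMP target, by 2.38 ± 0.16 in parenchyma at 3 weeks (adjusted p = 2.7e-17) and 1.72 ± 0.17 at 11 weeks (adjusted p = 2.7e-17). The 8 targets of TGF-beta gave 4 higher and 3 lower in airway and 5 higher and 3 lower in parenchyma at both times. Chrdl1, chordin-like 1, fell furthest of the list in all 4 comparisons, by 2.80 ± 0.17 and 3.30 ± 0.18 at 3 weeks (adjusted p = 1.1e-17 and 5.9e-20) and by 2.15 ± 0.17 and 2.45 ± 0.16 at 11 weeks (adjusted p = 1.5e-23 and 9.5e-30). Fst, follistatin, which binds activin, rose at 3 weeks by 1.61 ± 0.20 in airway (adjusted p = 1.2e-09) and 2.49 ± 0.20 in parenchyma (adjusted p = 1.8e-14), and Tgfbi, a TGF-beta-induced matrix protein, by 1.15 ± 0.14 (adjusted p = 2.8e-09) and 1.86 ± 0.14 (adjusted p = 2.7e-15). At 11 weeks the rises of the list included Itgb6 (1.07 ± 0.21, adjusted p = 5.2e-06) in airway, and Sostdc1 (1.97 ± 0.64, adjusted p = 0.0056) and Cd109 (1.95 ± 0.36, adjusted p = 6.9e-07) in parenchyma, and Dcn, decorin, fell in airway by 1.75 ± 0.28 (adjusted p = 1.8e-08).

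Whether HDM acted differently in the 2 tissues was tested as an interaction. At 3 weeks 12 members differed (9 with the higher log2 fold change in airway, 3 in parenchyma), against 17.3% of all genes (10.8% and 6.43%), and at 11 weeks 16 differed (11 and 5), against 27.6% (12.7% and 14.9%). The 3-week count was 7 with DESeq2 size factors and with no filter on low counts, and the 11-week count was 10 with library quality weights and with no filter. The shares of all genes in these recounts are not given here. Grem1 differed at both times, by -2.46 ± 0.83 (adjusted p = 0.034) and -3.35 ± 0.85 (adjusted p = 0.0014), with the higher log2 fold change in parenchyma. Its mean level at 3 weeks was higher in airway, at 7.41 against 3.32 CPM in HDM and 5.42 against 0.296 CPM in PBS. The 3-week difference of Grem1 was lost when both time points were fitted together (adjusted p = 0.052) and without the 3-week airway libraries nearest to parenchyma (adjusted p = 0.058). Inhba rose further in parenchyma at 11 weeks by a log2 difference of -2.53 ± 0.74 (adjusted p = 0.0062), while at 3 weeks -2.52 did not pass (adjusted p = 0.072) but passed without those airway libraries (adjusted p = 0.017). Nog differed the other way, by 2.45 ± 0.62 at 3 weeks (adjusted p = 0.0058) and 1.19 ± 0.45 at 11 weeks (adjusted p = 0.036), and DESeq2 lost the later call (adjusted p = 0.065). Tgfb3 differed by -1.04 ± 0.24 at 3 weeks (adjusted p = 0.003) and -0.64 ± 0.18 at 11 weeks (adjusted p = 0.0043), and Bmpr1b by -1.07 ± 0.20 at 11 weeks (adjusted p = 1.0e-05). Smooth muscle markers also differed for 5 of 5 genes at 11 weeks, with a median log2 difference of -2.44, and their part was not tested.

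CS alone was compared with air in PBS mice at 11 weeks. In airway 5 members were higher and 5 lower, against 13.7% of all genes (7.66% higher, 6.03% lower), and in parenchyma 11 were higher and 19 lower, against 35.9% (17.7% higher, 18.2% lower). Inhba in parenchyma ran from 0.221 to 1.58 CPM (median 0.409) in PBS.AIR and from 3.16 to 7.66 CPM (median 5.49) in PBS.CS, without overlap, and rose by a log2 fold change of 3.46 ± 0.66 (11.0-fold, adjusted p = 7.0e-06). In airway, PBS.CS libraries held 2.32 to 5.29 CPM (median 4.03) against 1.06 to 3.22 CPM (median 1.62), and the log2 fold change of 1.07 did not pass in limma-voom (adjusted p = 0.13) but did with DESeq2 (adjusted p = 0.004). Gdf3 rose in both tissues, by 1.53 ± 0.48 in airway (adjusted p = 0.017) and 2.60 ± 0.50 in parenchyma (adjusted p = 8.6e-06), where PBS.CS libraries at 0.651 to 2.10 CPM (median 1.35) lay above all PBS.AIR libraries.

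Gdf15 rose with CS as well. In parenchyma it ran from 0.417 to 1.35 CPM (median 0.842) in PBS.AIR and from 1.99 to 8.31 CPM (median 4.31) in PBS.CS, without overlap, a log2 fold change of 2.36 ± 0.38 (adjusted p = 8.5e-08). In airway it rose by 1.61 ± 0.47 (adjusted p = 0.011), with 7 of 10 PBS.CS libraries above all PBS.AIR libraries. Bmp8a rose in parenchyma by 2.68 ± 0.46 (adjusted p = 5.7e-07), from at most 0.143 CPM to between 0.0693 and 0.720 CPM. Ltbp4 fell from a median of 292 CPM (223 to 349.7) to 140.1 CPM (81.2 to 173.3) in parenchyma, without overlap, by 1.07 ± 0.14 on the log2 scale (adjusted p = 3.9e-11).

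Smaller CS effects ran through the receptors. Tgfbr1 rose by 0.30 ± 0.07 in airway (adjusted p = 0.0014) and 0.42 ± 0.07 in parenchyma (adjusted p = 1.1e-06), and Tgfbr2 by 0.32 ± 0.05 (adjusted p = 5.2e-08) and 0.33 ± 0.05 (adjusted p = 6.1e-09). In parenchyma Smad6 fell by 0.69 ± 0.22 (adjusted p = 0.0088), Bmpr2 by 0.63 ± 0.18 (adjusted p = 0.0032), Acvrl1 by 0.57 ± 0.17 (adjusted p = 0.0063) and Tgfbr3 by 0.62 ± 0.10 (adjusted p = 4.7e-07). Endothelial markers were lower for 3 of 5 genes in parenchyma and 1 of 5 in airway, macrophage markers were higher for 5 of 5 and 4 of 5 and neutrophil markers for 4 of 4 in both, and their part was not tested. Of the other pathway genes, 6 were higher and 17 lower in parenchyma, where 35.9% of all genes passed, and 3 higher and 5 lower in airway, where 13.7% passed. Chrdl1 fell by 0.81 ± 0.13 in airway (adjusted p = 9.0e-07) and 1.35 ± 0.13 in parenchyma (adjusted p = 2.1e-16), Ccn2, connective tissue growth factor, by 0.86 ± 0.16 in airway (adjusted p = 2.0e-05), and Postn, periostin, by 0.92 ± 0.12 in parenchyma (adjusted p = 7.7e-11). The largest rises of that list were Itgb6, a subunit of a TGF-beta-activating integrin (0.70 ± 0.21, adjusted p = 0.015), and Tgif1 (0.24 ± 0.08, adjusted p = 0.021) in airway, and Cd109, a TGF-beta co-receptor (1.41 ± 0.37, adjusted p = 0.0013), and Itgb6 (0.61 ± 0.21, adjusted p = 0.014) in parenchyma.

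Added to HDM, CS raised Bmp6, Smad6 and Bmpr2 and lowered Gdf3 and Ltbp2 in both tissues. HDM.CS against HDM.AIR gave 6 members higher and 4 lower in airway, against 16.2% of all genes (6.07% higher, 10.1% lower), and 17 higher and 5 lower in parenchyma, against 24.1% (10.04% higher, 14.1% lower). This comparison shares the HDM.AIR libraries with the HDM comparison, so an opposite sign is partly built in. Bmp6 rose by 0.97 ± 0.24 in airway (adjusted p = 0.0016) and 1.12 ± 0.22 in parenchyma (adjusted p = 2.7e-05), where HDM.AIR libraries ran from 8.09 to 43.5 CPM (median 23.7) and HDM.CS libraries from 37.4 to 73.2 CPM (median 45.5), overlapping. Smad6 rose by 0.69 ± 0.23 (adjusted p = 0.025) and 0.84 ± 0.22 (adjusted p = 0.002), and Bmpr2 by 0.63 ± 0.16 (adjusted p = 0.003) and 0.81 ± 0.17 (adjusted p = 8.6e-05). Gdf3 fell by 0.85 ± 0.22 in airway (adjusted p = 0.0036) and 1.04 ± 0.23 in parenchyma (adjusted p = 2.1e-04), and Ltbp2 by 0.63 ± 0.11 (adjusted p = 4.4e-06) and 0.68 ± 0.11 (adjusted p = 2.6e-07). Inhba fell in parenchyma, from a median of 41.6 CPM (13.3 to 66.7) in HDM.AIR to 18.8 CPM (9.56 to 25.9) in HDM.CS, by 1.05 ± 0.23 on the log2 scale (adjusted p = 2.0e-04), with overlap. Endothelial markers were higher for 5 of 5 genes in both tissues, with summed levels of 542 to 1458 CPM in HDM.AIR and 1188 to 1919 CPM in HDM.CS parenchyma, and their part was not tested.

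The interaction of HDM with CS, which asks whether CS acted differently in HDM and PBS mice, passed for 20 members in airway (13 higher, 7 lower), against 19.1% of all genes (7.72% and 11.4%), and for 29 in parenchyma (21 higher, 8 lower), against 35.99% (17.3% and 18.7%). In parenchyma the log2 interaction was -4.51 ± 0.70 for Inhba (adjusted p = 3.8e-08) and -3.64 ± 0.55 for Gdf3 (adjusted p = 1.9e-08). Both genes were raised by either exposure alone and were lower in HDM.CS than in HDM.AIR. It was positive at 1.58 ± 0.30 for Bmp6 (adjusted p = 7.2e-06), 1.53 ± 0.31 for Smad6 (adjusted p = 2.6e-05) and 1.44 ± 0.25 for Bmpr2 (adjusted p = 7.0e-07). The 5 endothelial markers also had a positive interaction in parenchyma, with a median of 1.12, and their part was not tested. In airway the interaction of Inhba, -1.47 ± 0.53 (adjusted p = 0.039), was lost in 1 fit of all libraries (adjusted p = 0.051).

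DEX alone was compared in PBS.AIR mice. In airway 5 were higher and 3 lower, against 14.9% of all genes (8.03% higher, 6.85% lower), and in parenchyma 5 were higher and 12 lower, against 22.6% (10.6% higher, 11.97% lower). Gdf15 ran from 0.138 to 0.914 CPM (median 0.393) in PBS.AIR airway and from 0.433 to 5.24 CPM (median 2.61) in PBS.AIR.DEX airway, with 9 of 10 treated libraries above all untreated ones. In parenchyma it ran from 0.417 to 1.35 CPM (median 0.842) and, with DEX, from 2.01 to 12.2 CPM (median 5.37), without overlap. It rose by a log2 fold change of 2.47 ± 0.45 in airway (5.54-fold, adjusted p = 1.5e-05) and 2.61 ± 0.37 in parenchyma (6.10-fold, adjusted p = 8.1e-09). Gdf11 fell by 0.79 ± 0.20 (adjusted p = 0.0019) and 0.83 ± 0.21 (adjusted p = 0.002), with overlapping groups. Ltbp4 fell in parenchyma from a median of 292 CPM (223 to 349.7) to 111.3 CPM (98.3 to 134.2), without overlap, by 1.33 ± 0.14 on the log2 scale (adjusted p = 1.4e-14), and in airway by 0.46 ± 0.14 (adjusted p = 0.012). Tgfbr2 rose by 0.33 ± 0.05 in both tissues (adjusted p = 8.3e-08 and 2.8e-08) and Smad3 by 0.33 ± 0.07 and 0.28 ± 0.07 (adjusted p = 1.5e-04 and 9.2e-04). Acvr1c rose in airway by 1.22 ± 0.40 (adjusted p = 0.024), a call that DESeq2 lost (adjusted p = 0.073).

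**Figure D4:**
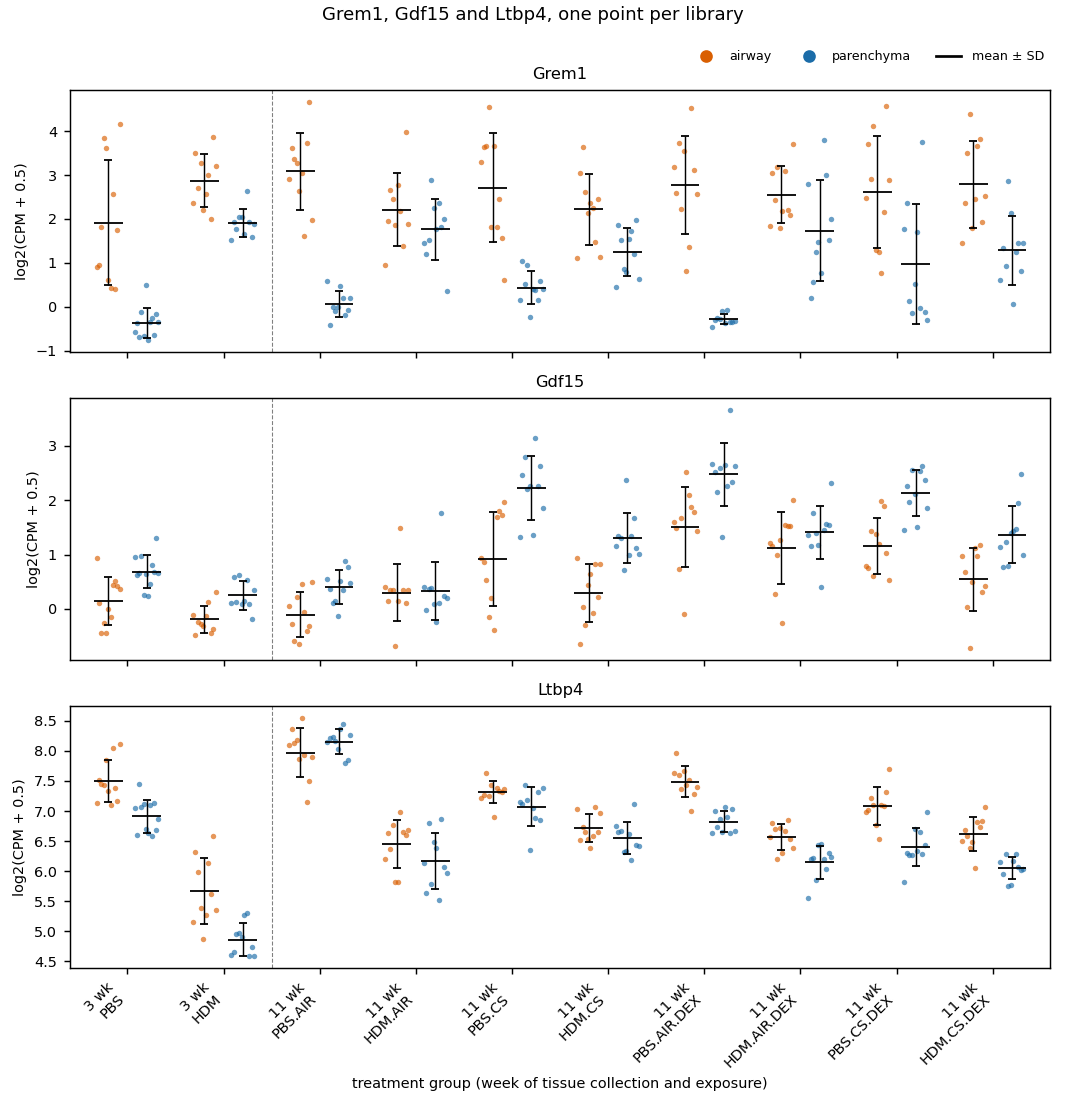
Levels of Grem1, Gdf15 and Ltbp4 as log2(CPM + 0.5) for every library in the 20 groups, with airway in orange, parenchyma in blue and bars for the group mean ± SD. Grem1 stands higher in control airway than in control parenchyma, Gdf15 is higher in the PBS.CS and PBS.AIR.DEX groups than in PBS.AIR, and Ltbp4 parenchyma falls from 223 to 349.7 CPM in PBS.AIR to 98.3 to 134.2 CPM in PBS.AIR.DEX.

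Of the other pathway genes, DEX raised 4 and lowered 2 in airway, where 14.9% of all genes passed, and raised 3 and lowered 11 in parenchyma, where 22.6% passed. Thbs1, thrombospondin 1, an activator of latent TGF-beta, rose by 0.95 ± 0.19 in airway (adjusted p = 7.6e-05) and 1.07 ± 0.19 in parenchyma (adjusted p = 3.9e-06). Fn1, fibronectin, fell by 0.37 ± 0.12 (adjusted p = 0.028) and 0.86 ± 0.12 (adjusted p = 1.5e-08). Nrros fell in airway by 0.41 ± 0.13 (adjusted p = 0.019) and Fstl3 rose there by 0.49 ± 0.13 (adjusted p = 0.0048), while in parenchyma Chrdl1 fell by 0.91 ± 0.13 (adjusted p = 2.9e-09) and Tgif1 rose by 0.29 ± 0.08 (adjusted p = 0.0058). Beside these, 3 of 3 B cell and 3 of 3 T cell markers were lower with DEX in both tissues, 4 of 5 alveolar type II markers were higher, and endothelial markers passed for 0 of 5 genes in airway and were lower for 2 of 5 in parenchyma, and their part was not tested.

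DEX given to HDM mice raised Smad6, Bmp6, Bmpr2 and Acvrl1 in both tissues. HDM.AIR.DEX against HDM.AIR gave 18 members higher and 4 lower in airway, against 28.6% of all genes (12.5% higher, 16.05% lower), and 17 higher and 4 lower in parenchyma, against 28.5% (12.2% higher, 16.2% lower). Smad6 ran from 15.4 to 41.3 CPM (median 24.2) in HDM.AIR airway and from 33.3 to 76.6 CPM (median 49.97) with DEX, and rose by 1.04 ± 0.23 on the log2 scale (adjusted p = 1.3e-04), and in parenchyma by 0.92 ± 0.22 (adjusted p = 4.9e-04). Bmp6 rose by 1.11 ± 0.24 (adjusted p = 9.5e-05) and 1.00 ± 0.22 (adjusted p = 1.8e-04), Bmpr2 by 0.68 ± 0.16 (adjusted p = 4.3e-04) and 0.68 ± 0.17 (adjusted p = 5.8e-04) and Acvrl1 by 0.78 ± 0.16 (adjusted p = 3.8e-05) and 0.50 ± 0.16 (adjusted p = 0.011). Groups overlapped for each of these genes, and they share the HDM.AIR libraries with the HDM comparison. Endothelial markers were higher for 3 of 5 genes in airway and 1 of 5 in parenchyma, and their part was not tested.

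Some HDM-raised members fell with DEX. Gdf11 fell by 1.04 ± 0.17 in airway (adjusted p = 1.5e-07), from a median of 7.29 CPM (5.94 to 10.1) to 3.49 CPM (2.56 to 6.09), and by 1.00 ± 0.18 in parenchyma (adjusted p = 2.8e-06). Ltbp2 fell by 0.78 ± 0.11 (adjusted p = 1.1e-09) and 0.89 ± 0.11 (adjusted p = 1.9e-11), and Bmp8a by 1.66 ± 0.36 (adjusted p = 8.3e-05) and 1.45 ± 0.42 (adjusted p = 0.0046). Gdf3 fell in parenchyma by 0.83 ± 0.23 (adjusted p = 0.0023), and its airway call (-0.59 ± 0.22, adjusted p = 0.034) was lost with DESeq2 and with the edgeR quasi-likelihood test (adjusted p = 0.16 in both). Inhba did not pass, at 0.24 in airway (adjusted p = 0.48) and -0.48 in parenchyma (adjusted p = 0.09), and neither did Tgfb1, at -0.07 (adjusted p = 0.78) and -0.10 (adjusted p = 0.65). Gdf15 rose by 1.22 ± 0.42 (adjusted p = 0.019) and 1.50 ± 0.41 (adjusted p = 0.0024).

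DEX was also compared in smoke-exposed mice. In CS mice it raised 5 and lowered 1 in airway, against 11.3% of all genes (4.68% higher, 6.60% lower), and raised 6 and lowered 5 in parenchyma, against 16.9% (7.39% higher, 9.49% lower). In HDM.CS mice it raised 3 and lowered 3 in airway, against 9.30% (2.25% higher, 7.05% lower), and raised 2 and lowered 4 in parenchyma, against 7.86% (2.46% higher, 5.40% lower). With library quality weights the HDM.CS counts became 11 in airway and 10 in parenchyma, and the shares of all genes with these weights are not given here. Gdf11 fell in each, by 0.96 ± 0.20 and 0.71 ± 0.23 in CS mice (adjusted p = 2.8e-04 and 0.019) and by 0.85 ± 0.18 and 0.79 ± 0.21 in HDM.CS mice (adjusted p = 3.7e-04 and 0.0066). Gdf15, which rose with DEX alone, did not pass there, at 0.44 and -0.14 in CS mice (adjusted p = 0.5 and 0.78) and 0.34 and 0.04 in HDM.CS mice (adjusted p = 0.75 and 0.98). Ltbp4 fell in parenchyma by 0.69 ± 0.13 in CS mice (adjusted p = 2.6e-05) and 0.52 ± 0.13 in HDM.CS mice (adjusted p = 0.0031).

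Members below the filter at both times were Bmp10, Bmp15, Bmp8b, Gdf2, Gdf7, Inhbc and Inhbe, with at most 15 counts in any library, and Bmp8a was below it at 3 weeks only. Several members overlap the span of a gene on the opposite strand. Among them are Bmp6 with Txndc5, Tgfb3 with Ttll5, Chrd with Thpo and Acvr2a with Orc4. Whether exons are shared was not examined, and the strand setting of the counting is not given in the sources used here. Reads in any shared exon therefore cannot be told apart.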

How the data were processed

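RNA of airway and parenchyma was sequenced in 203 libraries of 20 groups. The authors deposited 1 table of estimated counts per gene, of which 20.293% of non-zero values were not whole (tolerance 1e-06), for 43346 identifiers. The submitters' processing notes name bcl2fastq 2.20.0.422, STAR 2.5.1b, RSEM 1.2.31, kallisto 0.44.0 and the mm10 build, and which quantifier made the table is not given in the sources used here. Symbols matched 42462 identifiers in GENCODE M21, and 23106 identifiers equalled the M21 identifier with its version. Coordinates are from GENCODE M21 and promoters from RefSeq on GRCm38.p6, with a window for 40 of the 57 members.

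Estimated counts were rounded to whole numbers and scaled by the trimmed mean of M values (TMM). A gene was kept where 9 or more libraries reached the CPM that 10 counts give in a library of median depth, 17377 at 3 weeks and 18250 at 11 weeks. Each time point was fitted with limma-voom (limma 3.58.1, edgeR 4.0.16, R 4.3.3), 1 mean per group, and p-values were adjusted over all genes tested by the Benjamini-Hochberg method with a threshold of 0.05. Fold changes carry their standard error, and library levels are CPM scaled over all libraries. The edgeR quasi-likelihood test, DESeq2 1.42.0, its size factors, no low-count filter, 1 fit of all libraries and library quality weights were alternatives, and leaving out 4 libraries that stood apart, leaving out 4 airway libraries nearest to parenchyma and 2 blocks by library code were added after seeing the data. The fits were tested on simulated data.

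Members were named singly where they passed with a log2 fold change of at least 1 in size in an HDM, CS or DEX effect or between PBS tissues at 3 weeks, together with 15 core genes named whatever their values, 35 in all. Results for 1 of these members and for some other genes are not reported here. Of the other pathway genes, at most the 2 largest changes in each direction were named per effect. The members and lists were chosen with earlier results of these data known. Total counts limit precision for genes of a few counts per library. The labels name no batch, and whether neighbouring library codes share a mouse or a run is not given in the sources used here.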

Additional observations from a re-analysis of the deposited data

Results flagged for a closer look

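In 14 combinations of a gene and a group, 9.72% of those tested, 1 library lay far from the others by Dixon's criterion. Chance gives about 5% where values follow a normal distribution. The criterion was applied to CPM without a log scale, and in all 14 the outlying library was the highest. The chance share for these values may therefore differ from 5%. In airway at 11 weeks, library X65 of PBS.AIR was high for both Grem1 (24.97 CPM, next 12.8) and Gdf11 (8.34 CPM, next 4.74), and library X89 of HDM.AIR for both Grem1 (15.4 CPM, next 6.30) and Gdf11 (10.1 CPM, next 7.81). In parenchyma of HDM mice at 3 weeks, library X4 was high for Grem1 (5.76 CPM, next 3.62) and Bmpr2 (374 CPM, next 303). Inhba reached 52.6 CPM in library X189 of HDM.AIR airway (next 28.95), and Gdf3 6.94 CPM in library X17 of HDM.CS airway (next 4.14). In airway of HDM mice at 3 weeks, Smad9 was 3.08 CPM in library X183 (next 1.81) and Tgfbr3 48.1 CPM in library X63 (next 32.02). In parenchyma at 11 weeks, Gdf15 was 12.2 CPM in library X68 of PBS.AIR.DEX (next 5.81), Bmp8a 0.720 CPM in library X134 of PBS.CS (next 0.369), and Bmpr1b 6.48 CPM in library X90 of HDM.AIR (next 4.42) and 10.2 CPM in library X86 of PBS.AIR (next 7.08).

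The effect of HDM differed between airway and parenchyma by over 1 on the log2 scale for several named members (limma-voom, Benjamini-Hochberg adjusted p, airway less parenchyma). At 3 weeks the difference was -2.65 for Acvr1c (adjusted p = 0.03), -2.46 for Grem1 (adjusted p = 0.034), -1.04 for Tgfb3 (adjusted p = 0.003) and 2.45 for Nog (adjusted p = 0.0058). At 11 weeks it was -3.35 for Grem1 (adjusted p = 0.0014), -2.53 for Inhba (adjusted p = 0.0062), -1.07 for Bmpr1b (adjusted p = 1.0e-05) and 1.19 for Nog (adjusted p = 0.036). The Acvr1c difference rests on parenchyma libraries of at most 5 counts in PBS and was lost with the edgeR quasi-likelihood test (adjusted p = 0.091), in 1 fit of all libraries (adjusted p = 0.19) and without the 3-week airway libraries nearest to parenchyma (adjusted p = 0.08). The 3-week difference of Grem1 was lost in the latter 2 as well (adjusted p = 0.052 and 0.058).

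The effect of CS differed between HDM and PBS mice in the same way. In airway the log2 interaction was -2.38 for Gdf3 (adjusted p = 3.9e-04), -1.75 for Bmp8a (adjusted p = 0.0064), -1.47 for Inhba (adjusted p = 0.039) and 1.04 for Bmp6 (adjusted p = 0.012). In parenchyma it was negative for the ligands Inhba (-4.51, adjusted p = 3.8e-08), Gdf3 (-3.64, adjusted p = 1.9e-08) and Bmp8a (-3.21, adjusted p = 3.6e-06). It was positive there for Bmp6 (1.58, adjusted p = 7.2e-06), Smad6 (1.53, adjusted p = 2.6e-05), Bmpr2 (1.44, adjusted p = 7.0e-07), Ltbp4 (1.43, adjusted p = 1.5e-10), Tgfbr3 (1.38, adjusted p = 6.8e-14), Gdf10 (1.29, adjusted p = 0.0023), Acvrl1 (1.12, adjusted p = 5.6e-05), Smad9 (1.09, adjusted p = 2.5e-04) and Bambi (1.05, adjusted p = 1.4e-09).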

How the results depend on the processing

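The count of members that passed moved by over 1.5 times in 6 recounts, and no log2 fold change that passed turned its sign. The members whose HDM effect differed between tissues numbered 7 instead of 12 at 3 weeks with DESeq2 size factors in limma-voom and also with no filter on low counts. At 11 weeks they numbered 10 instead of 16 with library quality weights and also with no filter. With library quality weights, DEX in HDM.CS mice passed for 11 instead of 6 members in airway and 10 instead of 6 in parenchyma. The shares of all genes that passed in these recounts are not given here, and the cause of these shifts was not tested. For single genes, 7355 recomputed values kept their side of the threshold and the others gained or lost it. Leaving out the 4 libraries that stood apart lost 19 calls of single genes and gained 2, and leaving out the 4 airway libraries nearest to parenchyma lost 18 and gained 7, both chosen after seeing the data. The labels pair no libraries, but the codes run in sets of 20 that hold 1 library of each group, with 1 code missing and a last set of 4, and with airway and parenchyma of a treatment at neighbouring codes. Deviations from the group means correlated at a median of 0.26 between neighbouring codes (over 0.1 in 87.1% of pairs) and -0.033 between other airway and parenchyma libraries of a treatment. Compared only with the parenchyma libraries of the neighbour's group, 74% of airway libraries correlated best with their neighbour. This is a hint from the data and not from the design. With neighbouring codes as a replicate block, the members whose HDM effect differed between tissues numbered 16 at 3 weeks and 24 at 11 weeks, and with sets of 20 codes as a replicate block 15 and 20. The share of all genes that differed in these block fits is not given here. Each of these fits lost 3 calls of single genes, 1 of them the HDM call of Grem1 in airway, at 11 and 3 weeks respectively. The fit with neighbouring codes gained 14 calls and the fit with sets of 20 codes gained 30. Calls on genes of a few counts per library, such as Bmp8a, Nog and Acvr1c in parenchyma, are limited by depth.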
